A study of Mus musculus with 6 samples.

Results

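The 43 genes described here encode the enzymes that carry glucose to pyruvate and lactate, the proteins that bring pyruvate into the mitochondrion, and the enzymes of the tricarboxylic acid (TCA) cycle. They were chosen by name, and 42 were found by their symbol in the deposited table of 45777 genes. Pyruvate carboxylase was found by the RefSeq synonym Pc under the symbol Pcx. All 43 had a read count above 0 in all 6 samples, as did 22337 genes of the table, so that 17 glycolysis genes, 13 genes of pyruvate entry and 13 genes of the TCA cycle could be followed.

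The RNA came from cells sorted as astrocytes from male Aldh1l1-CreERT2/tdTomato fl/fl mice, which the labels list as WT. These mice carry a tamoxifen-dependent Cre recombinase driven by the astrocyte gene Aldh1l1 and a red fluorescent reporter. All mice received tamoxifen for 5 days. At 8 weeks of age they were given a single dose of streptozotocin (STZ, hyperglycemic group), which destroys the insulin-producing beta cells, or its citrate buffer (vehicle, normoglycemic group), and STZ mice were kept on the basis of high blood glucose. TdTomato-positive cells were sorted from the dissociated brain 21 days later, and cells of 3 mice were pooled into each of 3 vehicle and 3 STZ samples. The p-values therefore measure the spread between pools. In such bulk samples, a smaller number of cells of a type and less RNA per cell cannot be told apart.

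Glycolysis splits glucose into pyruvate in the cytosol. Pyruvate is either reduced to lactate by lactate dehydrogenase, or carried into the mitochondrion and oxidized by the pyruvate dehydrogenase complex to acetyl-CoA, which the TCA cycle burns. Astrocytes are known for active glycolysis and for releasing lactate, and they hold pyruvate carboxylase, which neurons largely lack, so that they can refill the cycle during the synthesis of glutamate. Many of these steps have several isoforms, encoded by separate genes with different tissue preference and regulation.

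Total counts ranged from 52529048 to 58749115 per sample, and the 43 genes held 2.23% to 2.41% of them. The 8 astrocyte markers examined, among them Aqp4 and Slc1a3, summed to between 9126 and 11520 TPM (a transcript level corrected for gene length and library size) in a sample, and none was at 0. The 8 neuronal markers summed to 31.7 to 59.1 TPM, the 3 markers of oligodendrocyte precursors to 2.33 to 3.80 TPM and the 6 microglial markers to 196 to 312 TPM. The 6 oligodendrocyte markers were high in vehicle sample 1 (1955 TPM) and STZ sample 1 (2486 TPM), and between 752 and 1017 TPM in the others. The 5 choroid plexus markers, led by Ttr, summed to 10465, 28346 and 29585 TPM in the vehicle samples and to 19560, 15803 and 26679 TPM in the STZ samples, so vehicle sample 1 stood apart from the other vehicle samples. In all samples but vehicle sample 1 this sum exceeded that of the 8 astrocyte markers. The 6 endothelial markers reached 33.2 to 107 TPM in the vehicle and 93.3 to 197 TPM in the STZ samples, and the 5 mural cell markers 52.6 to 63.2 against 77.1 to 102 TPM. The 4 neutrophil markers summed to 304 to 1909 against 1216 to 2687 TPM, the 4 ependymal markers to 158 to 407 against 314 to 542 TPM, and the 5 red blood cell markers to 16 to 55.0 against 34.6 to 65.5 TPM. The levels and isoform shares below are therefore those of the sorted samples as a whole. The part of each cell type in them was not tested.

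Aldolase and enolase were the most abundant steps of the pathway in the sorted samples, at 7690 and 3446 TPM on average over the 6 samples. Summed over its 17 genes, glycolysis reached 16264 ± 414 TPM (SD, n = 3) in the vehicle and 16051 ± 214 TPM (SD, n = 3) in the STZ samples. Pyruvate entry reached 5112 ± 316 and 4845 ± 241 TPM, and the TCA cycle genes 4176 ± 333 and 4012 ± 286 TPM. The groups overlapped in the sums of glycolysis, of pyruvate entry and of the TCA cycle. Aldoc alone, the brain aldolase, supplied 21% of the summed level of the 43 genes, Eno1 13.6%, Ldhb 9.88% and Aldoa 9.46%. At the other end stood Hk2 at 1.40 ± 0.228 TPM (SD, n = 6), followed by Pdp1, Eno2 and Pdk1 at 10.1, 11.9 and 12.5 TPM.

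**Figure D1:**
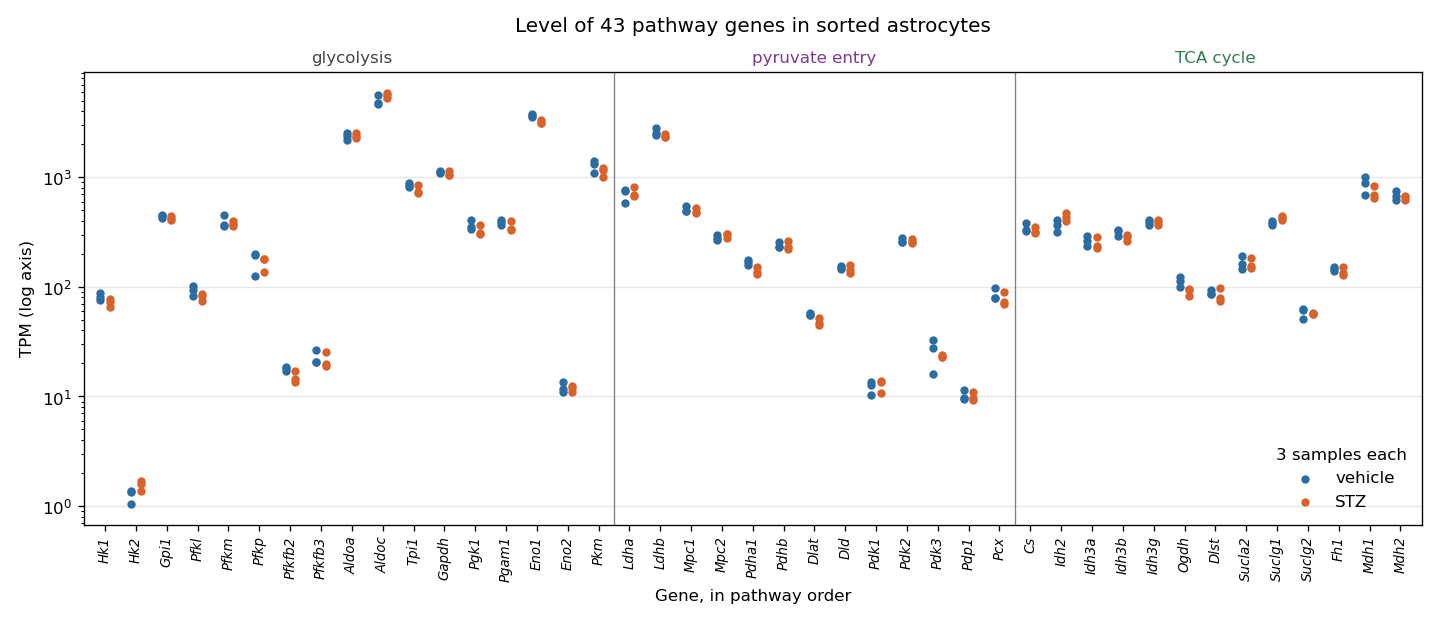
TPM (log axis) of the 43 genes in pathway order, with 1 point per sample, vehicle samples in blue and STZ samples in orange (3 each). Levels run from 1.40 TPM for Hk2 to 5304 TPM for Aldoc on average, and the points of both groups lie close together for nearly all genes.

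No gene of the pathway passed the threshold, which asked for a fold change over 1.5 and an adjusted p under 0.05, between STZ and vehicle. This held for edgeR's quasi-likelihood test, which called 5 of the 22337 genes (0.0224%), and for DESeq2, which called 234 (1.05%). The lowest adjusted p among the 43 genes was 0.311 in edgeR and 0.168 in DESeq2, both for Pdha1. At an unadjusted p under 0.05, 5 of the 43 genes were lower in STZ and 0 higher, that is 11.6% and 0%, where all genes gave 5.65% and 5.63%. These were Pdha1, Dlat, Pfkfb2, Ogdh and Hk1. For 40 of the 43 genes, the 95% interval of the fold change lay wholly inside a 1.5-fold change in either direction. These intervals rest on the spread between pools. The exceptions were Hk2, Pdk3 and Mdh1.

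The differences leaned to the lower side, and this lean over the genes as a set was not tested. A log2 fold change below 0 was found for 36 of the 43 genes (83.7%), whereas 48.1% of all genes, and 55.2% of the 10398 genes with a mean of at least 10 CPM (read counts scaled to library size), were below 0. The median log2 fold change was -0.10 over glycolysis, -0.06 over pyruvate entry, -0.09 over the TCA cycle and 0.01 over all genes tested. Of the 8 astrocyte markers 6 (75%) were also below 0, with a median of -0.15. Without overlap, 3 (37.5%) were lower in all STZ samples, namely Aldh1l1, Aqp4 and Slc1a2 at -0.22, -0.48 and -0.11. Gjb6 (0.27), or 12.5%, was higher in all of them, where all genes gave 9.85% lower and 8.64% higher. At edgeR's unadjusted p under 0.05, 2 were lower (25%) and 1 higher (12.5%), where all genes gave 5.65% and 5.63%. None passed the threshold in edgeR or DESeq2. Aqp4 had an adjusted p of 0.0169 in DESeq2 but changed by less than 1.5-fold. The summed level of the 8 markers was 9389 to 11520 TPM in the vehicle and 9126 to 10018 TPM in the STZ samples, and their part in the lean of the pathway genes was not tested. The 36 of 43 became 29 when vehicle sample 2 was left out, when 49.0% of all genes were below 0. Without STZ sample 3 the count became 38, beside 48.9% of all genes. All STZ samples were below all vehicle samples in normalized log2 CPM for 6 genes (Hk1, Pfkfb2, Eno1, Pdha1, Dlat and Ogdh, 14%), where all genes gave 9.85%, and above them for Hk2 and Suclg1 (4.65%), where all genes gave 8.64%. The 10398 more abundant genes gave 13.7% lower and 8.16% higher, and 9.2% of them were lower at an unadjusted p under 0.05. On the TPM scale Hk1 overlapped, leaving 5 genes lower and 2 higher, beside 7.4% and 9.84% of all genes. The count of 6 became 17 without vehicle sample 1 and 19 without STZ sample 3, when 15.9% and 16.1% of all genes were lower without overlap.

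**Figure D2:**
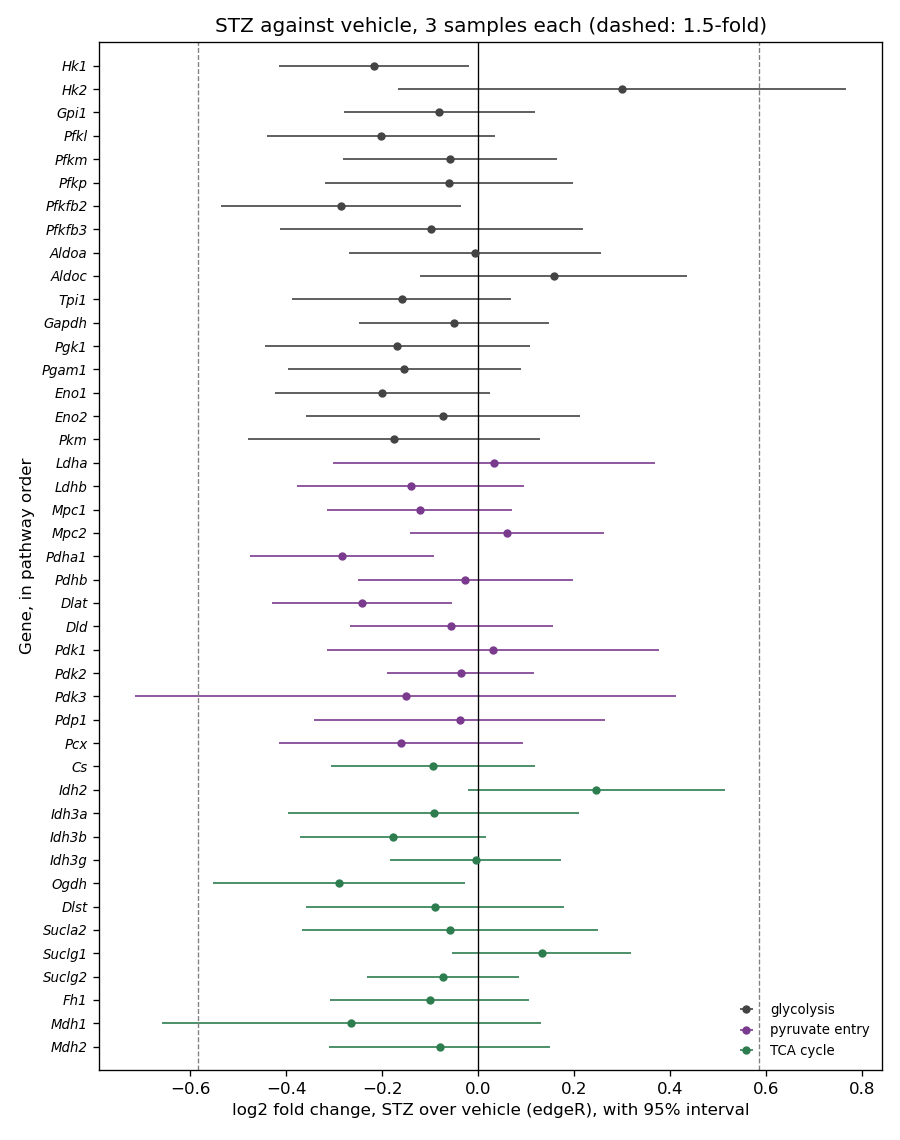
Log2 fold change of STZ over vehicle from edgeR for the 43 genes in pathway order (points) with 95% intervals (lines), 3 samples per group, coloured by section of the pathway, with dashed lines at a 1.5-fold change. Points run from -0.29 (Ogdh) to 0.30 (Hk2), and 5 intervals lie wholly below 0.

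Hexokinase traps glucose in the cell as glucose 6-phosphate, and its isoform Hk1 supplied nearly all of the transcript. Hk1 was at 87.4, 81.6 and 76.7 TPM in the vehicle and 77.8, 65.9 and 72.4 TPM in the STZ samples, with a log2 fold change of -0.22 (SE 0.0849, adjusted p = 0.411). The STZ samples were on the lower side, although STZ sample 1 exceeded vehicle sample 3 in TPM. Hk2, the insulin-responsive isoform of muscle and fat, was at 1.37, 1.04 and 1.34 TPM in the vehicle and 1.71, 1.59 and 1.38 TPM in the STZ samples (log2 fold change 0.30, SE 0.201, adjusted p = 0.598). Its lowest STZ value was just above the highest vehicle value. Hk1 took 91.4% ± 3.0 (SD, n = 6) of the summed hexokinase TPM, Hk3 5.15%, Hk2 1.68% and Hkdc1 1.5%. Neutrophils are a known source of Hk3, and its levels of 3.11, 1.91 and 5.98 TPM in the vehicle and 6.62, 5.47 and 2.73 TPM in the STZ samples stood beside the neutrophil marker sums given above, whose part in it was not tested.

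Phosphofructokinase-1 commits the sugar to glycolysis as a tetramer of subunits from 3 genes, of which Pfkm, the muscle form, was the most abundant. Pfkm was at 456, 369 and 358 TPM in the vehicle and 401, 362 and 374 TPM in the STZ samples (log2 fold change -0.06, SE 0.0956). Pfkp is the platelet form and was also measured by the study in astrocyte cultures. In the sorted cells it was at 127, 196 and 202 TPM in the vehicle and 136, 181 and 180.0 TPM in the STZ samples (log2 fold change -0.06, SE 0.111, adjusted p = 0.867). The lowest sample for Pfkp, vehicle sample 1, was the highest for Pfkm. Pfkl, the liver form, was at 82.6, 102 and 94.5 TPM against 85.7, 73.7 and 82.3 TPM (log2 fold change -0.20, SE 0.102, adjusted p = 0.501), and the groups overlapped. Pfkm thus took 60.1% ± 5.40 (SD, n = 6) of the family, Pfkp 26.5% ± 4.82 and Pfkl 13.5% ± 1.27. Counted as reads without the correction for length, Pfkm and Pfkp took 46.5% and 39.7%, so the order stayed and the gap narrowed.

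The PFKFB enzymes make and break fructose 2,6-bisphosphate, the strongest activator of phosphofructokinase-1. None of the PFKFB genes dominated. Pfkfb4, which is outside the 43 genes, took 37.6% ± 4.29 (SD, n = 6), Pfkfb3, the form with the highest kinase activity, 35.3% ± 3.23 and Pfkfb2, the heart form, 26.4% ± 2.34. Pfkfb4 was the largest in 5 of the 6 samples and Pfkfb3 in STZ sample 3. Pfkfb2 was at 18.6, 18.1 and 17.2 TPM in the vehicle and 14.3, 13.6 and 17 TPM in the STZ samples (log2 fold change -0.29, SE 0.107, adjusted p = 0.400), all STZ samples being lower. The gene overlaps Yod1, whose counts came to 58.6% of its own, and no source states that reads were assigned by strand. With the counts of both genes summed, the log2 ratio of the group means went from -0.29 to -0.18. Pfkfb3 was at 26.7, 20.6 and 20.6 TPM against 19.9, 19 and 25.2 TPM, and the groups overlapped. Pfkfb4 was at 30.4, 23.1 and 22.6 TPM against 25.2, 21.7 and 18 TPM (log2 fold change -0.33, SE 0.107, adjusted p = 0.349).

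Glucose phosphate isomerase (Gpi1), the step before phosphofructokinase, was at 404 to 455 TPM in the 6 samples, with a log2 fold change of -0.08 (SE 0.0854). Aldolase, which splits fructose 1,6-bisphosphate, was the most abundant step of the pathway, with 7368 ± 390.0 TPM in the vehicle and 8012 ± 171 TPM in the STZ samples (SD, n = 3 each) over both genes. All STZ samples were above all vehicle samples in this sum, the highest vehicle value being 7803 and the lowest STZ value 7830 TPM. The step sums of enolase (3670 ± 147 against 3222 ± 95.3 TPM) were lower in STZ without overlap. So were those of phosphofructokinase-1 with Pfkfb2 and Pfkfb3 (703 ± 9.97 against 661 ± 15.3 TPM, SD, n = 3 each). The groups overlapped in the sums of all other steps. Aldoc, a gene that is much used as an astrocyte marker, was at 5620.4, 4723 and 4648 TPM in the vehicle and 5682, 5876 and 5272 TPM in the STZ samples (log2 fold change 0.16, SE 0.119, adjusted p = 0.641). Vehicle sample 1 lay among the STZ samples. Aldoa, the muscle form, was between 2182 and 2558 TPM with a log2 fold change of -0.01 (SE 0.113), whose sign turned when limma was run on TPM. Aldoc took 68.8% ± 3.09 (SD, n = 6) of aldolase and was 1.87 to 2.58 times the level of Aldoa within a sample.

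The next 4 enzymes carry the triose phosphates to 2-phosphoglycerate, and all had log2 fold changes a little below 0 whose intervals included it. Tpi1, triosephosphate isomerase, was at 720.2 to 878 TPM (log2 fold change -0.16, SE 0.0978). Gapdh, which makes NADH at this point, was at 1041 to 1152 TPM (log2 fold change -0.05, SE 0.0851). Pgk1, the first ATP-forming step, was at 335, 404 and 351 TPM in the vehicle and 309, 302 and 367 TPM in the STZ samples (log2 fold change -0.17, SE 0.118, adjusted p = 0.615). Pgam1, phosphoglycerate mutase, was at 369, 410.4 and 394 TPM against 334, 334 and 395 TPM (log2 fold change -0.15, SE 0.104, adjusted p = 0.601). In all 4, STZ sample 3 lay inside or above the span of the vehicle values and the other STZ samples below it. Pgk2 and Pgam2, the testis and muscle forms, were at 0.0185 and 0.862 TPM, so Pgk1 and Pgam1 were the only measured isoforms at a minimum of 1 TPM. Gene copies that could share reads with them were listed, with Pgam1-ps2 at 145 TPM and Pgk1-rs7 at 26.3 TPM on average, and the levels of Pgam1 and Pgk1 are uncertain by such amounts.

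Enolase turns 2-phosphoglycerate into phosphoenolpyruvate. Eno1, the widespread form, was at 3654, 3805 and 3513 TPM in the vehicle and 3153, 3157 and 3320.3 TPM in the STZ samples (log2 fold change -0.20, SE 0.0959, adjusted p = 0.485). All STZ samples lay below all vehicle samples. Eno1 took 96.0% ± 0.235 (SD, n = 6) of enolase. Eno2, the neuronal form, was at 10.9 to 13.5 TPM, or 0.334%, and Eno3, the muscle form, at 10.03 TPM. Eno1b, a gene copy close to Eno1 and therefore uncertain, held 3.40%. The share of Eno1 was 96.2% ± 0.190 in the vehicle and 95.8% ± 0.139 in the STZ samples (SD, n = 3 each), a difference of -0.333 percentage points whose groups did not overlap (exact permutation test, two-sided, p = 0.1, adjusted p = 0.625), and p = 0.1 is the smallest that 3 against 3 samples can give.

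Pyruvate kinase makes pyruvate and ATP. Pkm is spliced into muscle-type and fetal-type enzymes that a gene-level table does not separate. The study's primers for its astrocyte cultures were for pkm2, not for the whole gene. In these cultures, made from newborn pups, it reported higher expression of glycolytic enzymes in high glucose. That is a different measure and system from the sorted adult cells. In these cells Pkm was at 1102, 1419.7 and 1329.7 TPM in the vehicle and 1212, 1008 and 1176 TPM in the STZ samples. The log2 fold change was -0.18 (SE 0.131, 95% interval -0.48 to 0.13, adjusted p = 0.635), and the groups overlapped through vehicle sample 1. Pklr, the liver and red cell gene, was at 0.0872 TPM.

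Lactate dehydrogenase interconverts pyruvate and lactate, and its tetramers are built from A subunits (Ldha), favoured in glycolytic tissue, and B subunits (Ldhb), favoured in heart. Ldhb was the larger in all 6 samples, at 2438, 2819.8 and 2555 TPM in the vehicle and 2342, 2308 and 2496 TPM in the STZ samples (log2 fold change -0.14, SE 0.102, adjusted p = 0.625). Ldha, a further gene of the culture experiments, was at 586, 767 and 754 TPM in the vehicle and 679, 685 and 814 TPM in the STZ samples. Its log2 fold change was 0.03 (SE 0.144, 95% interval -0.30 to 0.37, adjusted p = 0.954), and without vehicle sample 1, its lowest sample, -0.10. The ratio of Ldhb to Ldha was 3.52 ± 0.372 (SD, n = 6), between 3.07 and 4.16 within a sample. The share of Ldha was 21.2% ± 1.72 in the vehicle and 23.3% ± 1.13 in the STZ samples (SD, n = 3 each), which overlapped (exact permutation test, two-sided, p = 0.2, adjusted p = 0.625). Ldhc and Ldhal6b, the testis forms, were at 0.00989 and 0.00986 TPM.

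Hypoxia-inducible factor 1 is known to bind near many glycolytic genes at sites with the core ACGTG or GCGTG. The bases upstream of a transcript start of Ldha and of Ldhb, the isoform pair at the branch to lactate, and of Pdha1, the gene with the smallest p, are given to show how these letters lie at each gene. They are 250 bases 5′ to 3′ from RefSeq on GRCm38.p6, and capitals mark ACGTG or GCGTG on either strand, CACGTG counting as ACGTG once on each strand. The windows lie at chr7:46845554-46845803 on the plus strand for Ldha (inside the gene's full span, before the first of 2 starts in the table), at chr6:142507958-142508207 on the minus strand for Ldhb and at chrX:160138431-160138680 on the minus strand for Pdha1.
Ldha: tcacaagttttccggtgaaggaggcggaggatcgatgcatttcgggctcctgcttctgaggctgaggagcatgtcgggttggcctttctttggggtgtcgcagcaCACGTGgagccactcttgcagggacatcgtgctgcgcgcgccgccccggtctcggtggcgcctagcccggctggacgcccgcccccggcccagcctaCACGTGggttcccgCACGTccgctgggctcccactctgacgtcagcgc
Ldhb: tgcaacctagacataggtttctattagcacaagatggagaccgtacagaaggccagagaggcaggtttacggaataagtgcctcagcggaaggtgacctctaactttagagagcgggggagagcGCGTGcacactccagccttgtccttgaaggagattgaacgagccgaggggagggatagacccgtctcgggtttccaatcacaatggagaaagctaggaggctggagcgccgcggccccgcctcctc
Pdha1: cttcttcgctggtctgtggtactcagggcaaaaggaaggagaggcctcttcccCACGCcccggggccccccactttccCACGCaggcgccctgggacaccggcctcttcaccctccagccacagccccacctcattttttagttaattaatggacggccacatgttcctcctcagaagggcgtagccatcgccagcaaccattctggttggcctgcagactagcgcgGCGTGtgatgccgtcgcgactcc
The Ldha window held 5 matches of ACGTG and 0 of GCGTG, the Ldhb window 0 and 1, and the Pdha1 window 0 and 3. Of the 43 genes, 41 had such windows, 64 in number, and Pdp1 and Idh3a had none in the table. ACGTG on either strand was present in 39.1% of these windows and in 16.6% of the 32851 windows of all genes. GCGTG was present in 50.0% and 28.2%, and CACGTG in 14.1% and 6.02%. By gene, ACGTG was found in 16 of 41 (39.0%), where 22.5% of the 15329 tested genes with a window held it, GCGTG in 24 (58.5%) against 42.9%, and CACGTG in 7 (17.1%) against 8.63%. These are counts of letters, and the data hold no measurement of binding. The sets of genes compared here were not matched for windows per gene, base composition or transcript level.

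The mitochondrial pyruvate carrier is built from Mpc1 and Mpc2. Mpc1 was at 469 to 550.4 TPM (log2 fold change -0.12, SE 0.0827) and Mpc2 at 265 to 307 TPM (log2 fold change 0.06, SE 0.0869). Within a sample Mpc1 was 1.53 to 1.97 times Mpc2, and the groups overlapped in that ratio and in both genes.

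The pyruvate dehydrogenase complex joins E1 (Pdha1 and Pdhb), E2 (Dlat) and E3 (Dld), and the log2 fold changes of its subunits ran from -0.28 to -0.03, a contrast between subunits that was not tested. Pdha1, the E1 alpha subunit that carries the regulatory phosphorylation sites, was at 177, 170.0 and 158 TPM in the vehicle and 136, 131 and 151 TPM in the STZ samples. Its log2 fold change was -0.28 (SE 0.0821, 95% interval -0.48 to -0.09, unadjusted p = 0.00931, adjusted p = 0.311), the smallest p among the 43 genes. Dlat was at 57.7, 55.7 and 55.6 TPM against 44.8, 47.3 and 51.9 TPM (log2 fold change -0.24, SE 0.0807, adjusted p = 0.356). For both genes all STZ samples were below all vehicle samples. Pdhb, the E1 beta subunit, was at 221 to 259.8 TPM (log2 fold change -0.03, SE 0.0960) and Dld, which E3 of other complexes shares, at 133 to 159 TPM (log2 fold change -0.06, SE 0.0907), both with overlapping groups. The ratio of Pdha1 to Pdhb within a sample was 0.703 ± 0.0572 in the vehicle and 0.587 ± 0.0243 in the STZ samples (SD, n = 3 each), and that of Dlat to Pdhb 0.236 ± 0.0171 and 0.202 ± 0.00247. The groups did not overlap in either ratio, which were described after the values had been seen and have no test.

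Pyruvate dehydrogenase kinases switch the complex off and phosphatases switch it on. Pdk2 was the main kinase, at 281, 255 and 259 TPM in the vehicle and 272, 256 and 253 TPM in the STZ samples, and had the narrowest interval of the 43 genes (log2 fold change -0.04, SE 0.0656, 95% interval -0.19 to 0.12). It took 77.3% ± 2.17 (SD, n = 6) of the kinases, Pdk4, the form induced by fasting and fat, 11.8% ± 1.10, Pdk3 7.19% ± 1.63 and Pdk1, a hypoxia-responsive form, 3.67% ± 0.477. Pdk1 was at 10.4 to 13.8 TPM (log2 fold change 0.03, SE 0.149). Pdk3 was at 16.1, 32.6 and 27.7 TPM in the vehicle and 22.9, 23.0 and 23.9 TPM in the STZ samples (log2 fold change -0.15, SE 0.242, 95% interval -0.72 to 0.41), the widest interval toward lower values, with vehicle sample 1 the lowest. Pdk4 was at 45.1, 44.1 and 39.5 TPM against 33.5, 39.1 and 39.7 TPM (log2 fold change -0.21, SE 0.0929, adjusted p = 0.462). Of the phosphatases, Pdp1 was at 9.46, 11.5 and 9.69 TPM in the vehicle and 9.29, 9.71 and 11.1 TPM in the STZ samples (log2 fold change -0.04, SE 0.130). It took 56.6% ± 2.26 (SD, n = 6) of phosphatase TPM and Pdp2 the rest, but 49.1% of reads without the correction for length, so their order is not settled. Pdk2 was 22.1 to 29.7 times the level of Pdp1 within a sample.

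Pyruvate carboxylase, the refilling step and a known astrocyte enzyme, was at 98.0, 79.7 and 79.1 TPM in the vehicle and 89.1, 72.4 and 70.0 TPM in the STZ samples under the symbol Pcx. The log2 fold change was -0.16 (SE 0.109, adjusted p = 0.601), and the groups overlapped. Lrfn4, which overlaps it, held counts equal to 20.3% of its own.

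**Figure D3:**
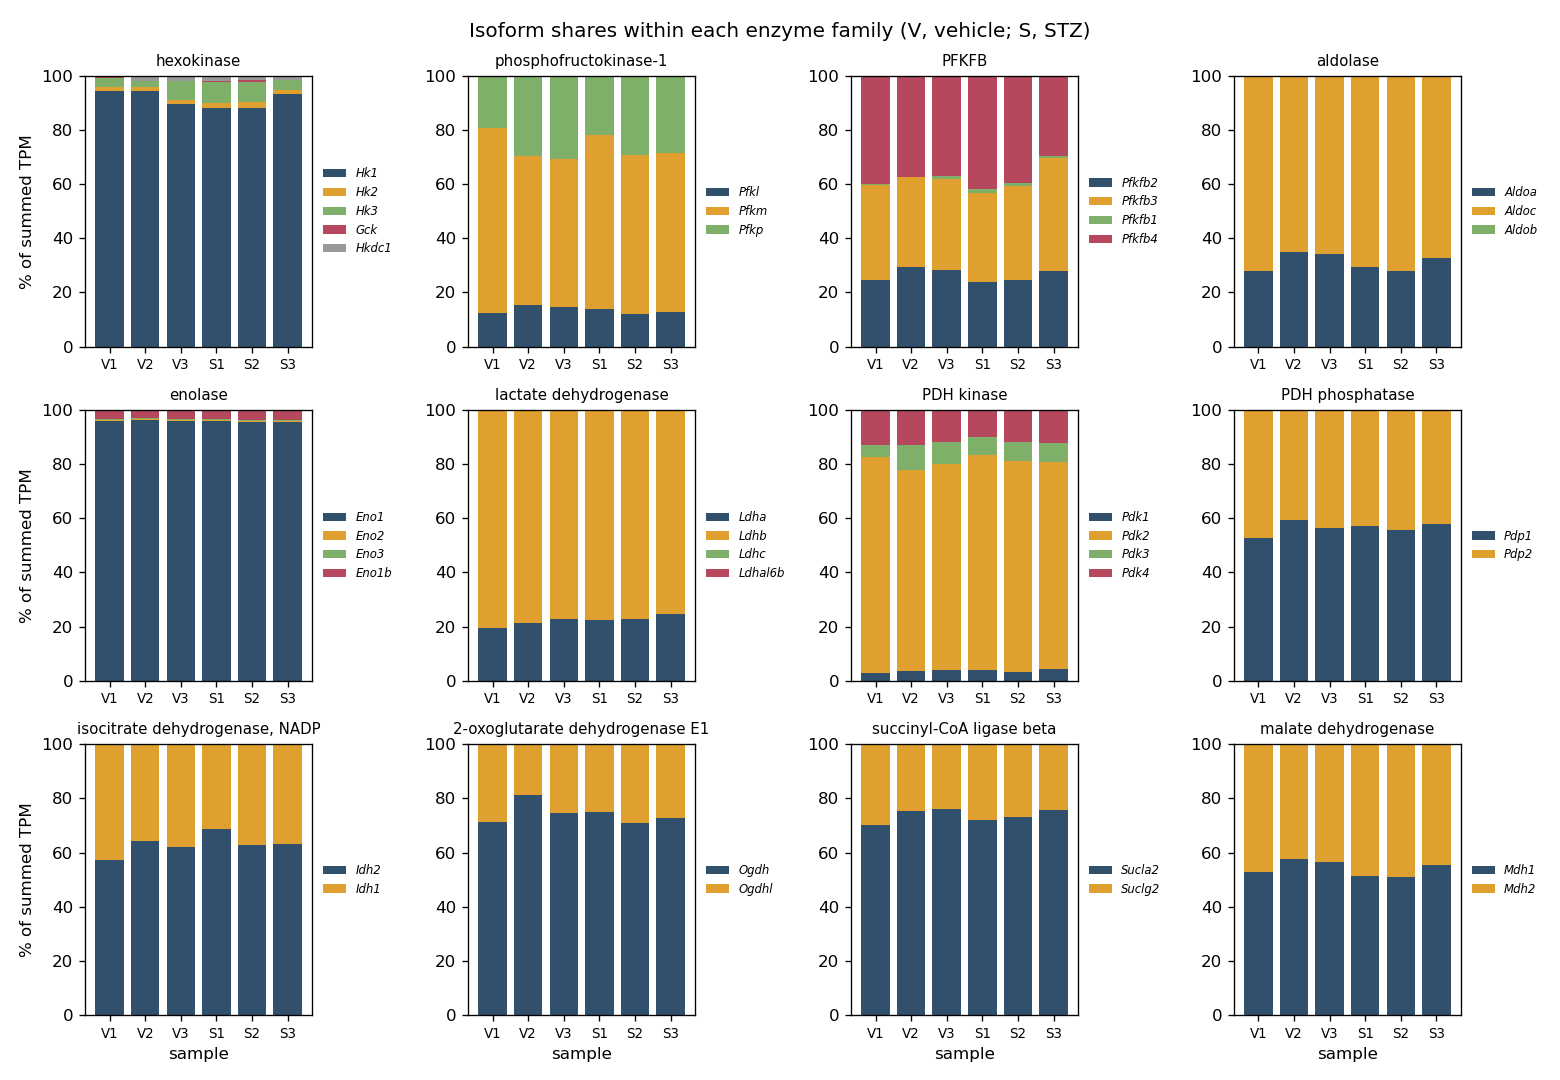
Share of each isoform in the summed TPM of its enzyme family (bars stack to 100%) in each of the 6 samples (V, vehicle; S, STZ), for the 12 families with at least 2 isoforms at 1 TPM or more. Hk1 and Eno1 fill nearly all of their families, Ldhb and Pdk2 about 77% each, while the PFKFB, PDH phosphatase and malate dehydrogenase families are divided, and the bars of both groups look alike.

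Citrate synthase (Cs), which lets acetyl-CoA into the TCA cycle, was at 313 to 385 TPM (log2 fold change -0.09, SE 0.0912). Isocitrate dehydrogenase 3, the NAD-linked enzyme of the cycle, joins the subunits Idh3a, Idh3b and Idh3g. Idh3b was at 325, 330.4 and 294 TPM in the vehicle and 262, 283 and 298 TPM in the STZ samples (log2 fold change -0.18, SE 0.0832, adjusted p = 0.473). Only STZ sample 3 lay above a vehicle sample. Nop56, which overlaps Idh3b, held counts equal to 52.0% of its own, and with both summed the log2 ratio of the group means went from -0.18 to -0.08. Idh3a was at 225 to 291 TPM (log2 fold change -0.09, SE 0.130) and Idh3g at 369.5 to 409 TPM (log2 fold change -0.01, SE 0.0763), where limma on TPM gave 0.01.

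Idh2, the NADP-linked mitochondrial enzyme that feeds antioxidant defence, was one of the 7 genes with a log2 fold change above 0. It was at 319, 404 and 365 TPM in the vehicle and 475, 397 and 433 TPM in the STZ samples (log2 fold change 0.25, SE 0.115, 95% interval -0.02 to 0.51, adjusted p = 0.473). STZ sample 2 was below vehicle sample 2. With the choroid plexus marker score as a covariate, an alternative added after the data were seen, its adjusted p was 0.158, the lowest of any of the 43 genes in that fit. Idh2 took 63.1% ± 3.59 (SD, n = 6) of NADP-linked isocitrate dehydrogenase beside the cytosolic Idh1, which was at 231 TPM.

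Oxoglutarate dehydrogenase, the next oxidation, joins Ogdh (E1), Dlst (E2) and Dld (E3). Ogdh was at 99.9, 124 and 112 TPM in the vehicle and 92.9, 82.6 and 96.5 TPM in the STZ samples, all STZ samples being lower, and had the lowest log2 fold change of the 43 genes (-0.29, SE 0.113, 95% interval -0.55 to -0.03, adjusted p = 0.407). Dlst was at 75.0 to 97.1 TPM (log2 fold change -0.09, SE 0.115), and its groups overlapped. Ogdh held 74.3% ± 3.81 (SD, n = 6) of E1 and Ogdhl, a form of brain and liver, the rest.

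Succinyl-CoA ligase pairs the alpha subunit Suclg1 with a beta subunit that sets whether ATP (Sucla2) or GTP (Suclg2) is made. Suclg1 was at 370.1, 399 and 387 TPM in the vehicle and 421, 409 and 447 TPM in the STZ samples (log2 fold change 0.13, SE 0.0799, adjusted p = 0.562). All STZ samples were above all vehicle samples. Sucla2 was at 147, 190.4 and 162 TPM against 148, 154 and 182 TPM (log2 fold change -0.06, SE 0.132) and Suclg2 at 50.7 to 62.9 TPM (log2 fold change -0.07, SE 0.0680). The ATP form was the larger in all 6 samples, with 73.8% ± 2.41 (SD, n = 6) of the beta subunits.

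Fumarase (Fh1) was at 129 to 153 TPM (log2 fold change -0.10, SE 0.0889). Malate dehydrogenase closes the cycle in the mitochondrion (Mdh2) and moves reducing equivalents in the cytosol (Mdh1). Mdh1 was at 696, 1006 and 883 TPM in the vehicle and 695, 642 and 836 TPM in the STZ samples (log2 fold change -0.26, SE 0.170, 95% interval -0.66 to 0.13, adjusted p = 0.582). Vehicle sample 1 lay within the range of the STZ samples. Mdh2 was at 618 to 745 TPM (log2 fold change -0.08, SE 0.0988). Mdh1 took 54.1% ± 2.73 (SD, n = 6) of both, with 55.6% ± 2.43 in the vehicle and 52.6% ± 2.36 in the STZ samples (n = 3 each), which overlapped.

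Over all families, 25 isoform shares were compared between the groups. The groups did not overlap in 2 of them, those of Hk2 (1.42% ± 0.187 in the vehicle against 1.94% ± 0.180 in the STZ samples, SD, n = 3 each) and of Eno1. Both had the smallest p that 3 against 3 samples allow in the two-sided exact permutation test (p = 0.1), so that no share could pass 0.05, and the lowest adjusted p was 0.625.

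Vehicle sample 1, whose choroid plexus markers were the lowest of the 6 samples, held an extreme value for part of the genes, as other samples did. Pfkp, Aldoa, Ldha, Mpc2, Pdk1, Pdk3, Idh2, Sucla2 and Suclg1 had their lowest TPM in vehicle sample 1, and Hk1, Pfkm, Pfkfb2, Pfkfb3, Pdha1, Dlat, Pdk2, Pcx, Cs and Suclg2 their highest. Such extremes were not particular to it. STZ sample 2 held the lowest TPM of Gpi1, Pkm, Ldhb, Ogdh and Mdh1, among others. Vehicle sample 2 held the highest of Tpi1, Eno1, Pkm, Ldhb and Mdh1, among others. With the choroid plexus score as a covariate, 29 of the 43 genes had a log2 fold change below 0 and the median over all was -0.05. Pdha1 kept -0.27 and Ogdh -0.22, while Pfkp and Pdk3 turned to 0.02 and 0.11, and 0 of the 43 genes passed the threshold. The part of the other cell types in these differences was not tested.

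**Figure D4:**
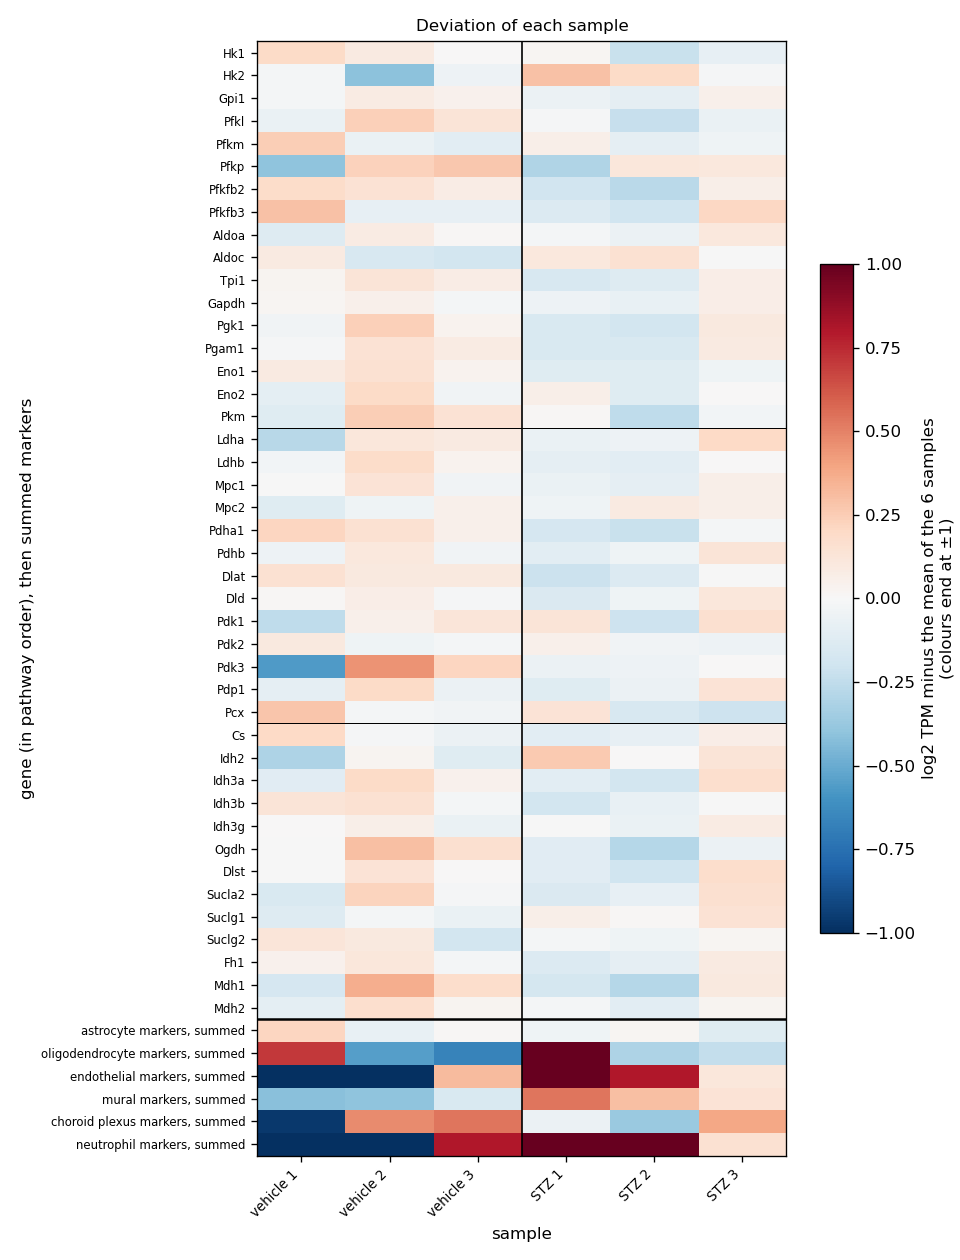
Log2 TPM of each sample minus the mean of the 6 samples, for the 43 genes in pathway order and, under the thick line, for the summed markers of 6 cell types (colours end at a difference of 1 in either direction). Most genes vary within a narrow band, and Pfkp and Pdk3 are low in vehicle sample 1 together with the choroid plexus markers. All marker sums but that of the astrocytes vary more than most of the genes.

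Of 50 further genes in 4 lists (17 other isoforms, 17 remaining enzymes and subunits, 9 of gluconeogenesis and malic enzymes, 7 of the NADH shuttles), 41 had a count in all samples and 0 passed the threshold in edgeR or DESeq2, while 4 were lower (9.76%) and 2 higher (4.88%) at edgeR's unadjusted p under 0.05, where all genes gave 5.65% and 5.63%. Their median log2 fold change was -0.08, with 28 (68.3%) below 0 beside the 48.1% of all genes. Among the other isoforms 6 of 13 were below 0, among the remaining enzymes 12 of 16, among gluconeogenesis and malic enzymes 3 of 5 and among the shuttles 7 of 7. Sdha, the flavin subunit of succinate dehydrogenase, had a log2 fold change of -0.23 (SE 0.0715, adjusted p = 0.339) and Sdhc, one of its membrane anchors, -0.29 (SE 0.101, adjusted p = 0.374), while Sdhb, the iron-sulfur subunit, had 0.01 and Sdhd, the other anchor, -0.0028. All STZ samples were lower for Sdha and Sdhc. Pgm1, a phosphoglucomutase that links glycogen to glycolysis, was higher in all STZ samples (log2 fold change 0.30, SE 0.0913, adjusted p = 0.324). Pck1, the cytosolic phosphoenolpyruvate carboxykinase of gluconeogenesis, was listed at 0 in all samples.

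For comparison, 18 targets of hypoxia-inducible factor 1 outside these enzymes had a median log2 fold change of 0.17, with 12 above 0 and 6 (33.3%) below 0, where 48.1% of all genes were below 0. The groups did not overlap for 6 (33.3%) on the higher side and 1 (5.56%) on the lower, against 8.64% and 9.85% of all genes. None passed in edgeR, where 1 was lower (5.56%) and 3 higher (16.7%) at an unadjusted p under 0.05, against 5.65% and 5.63% of all genes. In DESeq2 1 passed (5.56%), Ankrd37 (adjusted p = 0.0343, log2 fold change 0.93 in edgeR), beside 1.05% of all genes. Ankrd37, Adm and Car9 were lowest in vehicle sample 1 and highest in STZ sample 1, as were the endothelial, mural and ependymal marker sums. Vegfa was highest in vehicle sample 1. The part of these cell types in the values of the list was not tested. Slc2a1, the glucose transporter Glut1 that supplies the pathway, was at 489, 445 and 519.6 TPM in the vehicle and 639, 572 and 579 TPM in the STZ samples (log2 fold change 0.29, SE 0.0921, adjusted p = 0.347). All STZ samples were higher. Endothelial cells are known to hold much Slc2a1, and all 6 endothelial markers had log2 fold changes above 0 (1.01 to 1.43, summed levels given above), whose part in the difference was not tested. Vegfa, an angiogenic factor, was at 237, 229 and 222 TPM against 181 TPM in each STZ sample (log2 fold change -0.35, SE 0.0638, adjusted p = 0.189 in edgeR and 0.00537 in DESeq2).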

How the data were processed

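RNA of tdTomato-positive cells sorted from the brains of vehicle- and STZ-treated mice was sequenced by the authors (3 samples per group, each a pool of 3 mice). Groups and replicate numbers came from the sample labels. The labels name a SMART-Seq mRNA kit, and the study's methods name TruSeq v2 and SMART-Seq v4 kits. The submitters' processing notes name Trimmomatic 0.38, HISAT2 2.1.0, SAMtools 1.9, StringTie 2.1.3b and the build mm10, and strand-specific counting is not given in the sources used here.

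The deposited table holds, per gene and sample, a whole-number read count made by the authors without normalization. The FPKM values (fragments scaled by length and library size) were made by the authors and are not used for results. The TPM values were also made by the authors, depend on the gene length they used, and served for levels and isoform shares. All value columns belonged to mapped samples.

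The 43 genes, the gene lists and the markers were chosen with earlier results of these data known. As in the study, a gene had to have reads in all samples to be kept. Its further removal of outlier genes is not described in detail and was not repeated. The main test was the two-sided quasi-likelihood test of edgeR 4.0.16 (R 4.3.3) on counts scaled by TMM, with no term besides the group. P-values were adjusted after Benjamini and Hochberg over all 22337 genes, and a call needed a fold change over 1.5 and an adjusted p under 0.05. Fold changes, SE and 95% intervals come from this fit. Unless named otherwise, every adjusted p is edgeR's. Separation of groups used TMM-normalized log2 CPM with a prior count of 2. Isoform shares are percentages of the family's summed TPM in a sample, compared by the two-sided exact permutation test for isoforms of at least 1 TPM. Overlapping genes, promoter windows and positions came from RefSeq (GRCm38). The scripts were tested on simulated data.

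All 43 genes are named. Values of every sample are given for the largest isoform of each family, for Pfkp, Pkm and Ldha, and for the 10 genes with the smallest p, and from each other list at most 5 genes were to be named. The list of other isoforms exceeds this, since isoforms of the families described are named for their shares or levels, and these additions were made after their values were seen. Some genes of those lists are not reported here by name. Total counts of 52529048 to 58749115 per sample leave little counting error for most of these genes.

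Alternatives were DESeq2 1.42.0 (the study's tool), edgeR with the size factors of DESeq2, with every listed gene or with filterByExpr, the replicate number as a block, limma 3.58.1 on log2(TPM + 1) and log2(TPM + 0.1), CPM in place of TPM for shares and sums, leaving out each sample in turn and, added after seeing the data, the mean log2 CPM of 5 choroid plexus markers as a covariate. Tables and tests of shares used Python 3.11.15, pandas 2.3.3 and scipy 1.17.1.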

Additional observations from a re-analysis of the deposited data

How the results depend on the processing

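Changes under 1.5-fold were below the threshold by construction, and with 3 pools per group shares could not pass 0.05. No alternative called any of the 43 genes, and the lowest adjusted p any of them reached was 0.158. Over all genes, 5 calls became 234 with DESeq2, 12 with the choroid plexus covariate, 0 with limma on log2(TPM + 1) and on log2(TPM + 0.1) (2635 and 2612 at an unadjusted p under 0.05), 0 to 1 when a sample was left out, and 0 (1793 unadjusted) with the replicate block, which is a shared number only (correlations of same-numbered samples -0.18 to -0.10) and changed no call among the 43 genes. When a sample was left out, 6 to 19 genes of the pathway were lower in STZ without overlap, beside 13.8% to 16.1% of all genes. Then 2 to 3 were higher without overlap, a count for which the share over all genes was not computed. The median log2 fold change of glycolysis was then -0.22 to -0.062, with -0.22 without STZ sample 3.

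The direction held in all 14 alternatives for 29 of the 43 genes, the 5 with an unadjusted p under 0.05 included. Of the other 14, the log2 fold change turned with the choroid plexus covariate for Pfkp (0.023), Aldoa (0.066), Pdhb (0.023), Pdk3 (0.11), Pdp1 (0.032), Idh3g (0.023) and Sucla2 (0.035), and with limma on either TPM scale for Aldoa (0.0199) and Idh3g (0.0057). With a sample left out, it ranged from -0.12 to 0.029 for Pfkm, -0.24 to 0.0071 for Pfkfb3, -0.093 to 0.043 for Aldoa, -0.16 to 0.0071 for Eno2, -0.10 to 0.094 for Ldha, -0.0041 to 0.11 for Mpc2, -0.11 to 0.033 for Pdhb, -0.14 to 0.013 for Dld, -0.10 to 0.13 for Pdk1, -0.41 to 0.056 for Pdk3, -0.13 to 0.051 for Pdp1, -0.058 to 0.031 for Idh3g and -0.17 to 0.041 for Sucla2. The difference in isoform share, in percentage points, ranged from -0.148 to 0.479 for Hkdc1, -1.29 to 5.63 for Pfkm, -3.64 to 2.39 for Pfkp, -0.179 to 4.11 for Pfkfb3, -3.41 to 2.71 for Pfkfb4, -0.0369 to 0.535 for Pdk1, -1.85 to 0.602 for Pdk3, -0.864 to 2.43 for Pdp1 and -2.08 to 0.956 for Sucla2, and was 0.262 for Sucla2 with CPM in place of TPM. The causes were not tested.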
